A study of Mus musculus with 8 samples.

Results

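The lysosomal genes described here are 47 genes that encode cathepsins and their inhibitor cystatin C, other lysosomal hydrolases, lysosomal membrane proteins, subunits of the vacuolar proton pump and the transcription factors of the MiT/TFE family. They were taken by gene symbol from a count table of 55291 genes, and all 47 were among the 19470 genes that passed the filter on low counts. They fall into 8 lists by role, namely 11 cathepsins and their inhibitor, 11 glycosidases, 4 sulfatases, 5 lipid and peptide hydrolases and phosphatases, 2 precursors of activator proteins and granulins, 5 membrane proteins, 6 proteins of the proton pump and 3 transcription factors.

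RNA was sequenced from the whole lumbar spinal cord of 8 male mice on a C57BL/6J background, all of which carried the human SOD1G93A transgene, a model of amyotrophic lateral sclerosis. The 4 Ager-deleted animals (E1776, E5231, E5248 and E5568) were SOD1G93A Ager fl/fl Cx3cr1 Cre/+, and the 4 Cre control animals (E5386, E5642, E6578 and E6732) were SOD1G93A Ager +/+ Cx3cr1 Cre/+. Ager encodes RAGE, the receptor for advanced glycation end products. The tamoxifen-inducible Cre was inserted in the Cx3cr1 locus, so mice of both genotypes were heterozygous for Cx3cr1, and Cx3cr1 is active in microglia and also in some monocytes and macrophages outside the spinal cord. Both genotypes received 0.2 µg of tamoxifen in each of 5 daily injections. These began at 12 weeks of age by the labels, and at a slightly later age, called that of symptomatic onset, in the study's text. The labels give an age of 120 days at collection, whereas the study's text calls the sequenced tissue end-stage. There was no group without SOD1G93A, without Cre or without tamoxifen, so the values describe 1 contrast, Ager fl/fl against Ager +/+. The question was whether loss of microglial Ager was accompanied by a change in the lysosomal genes of the diseased cord.

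Lysosomes degrade proteins, glycans and lipids with acid hydrolases, and the vacuolar ATPase (V-ATPase) pumps protons into the lumen to give the low pH these enzymes need. Cathepsins are the lysosomal proteases, and microglia, the resident phagocytes of the spinal cord, express several of them strongly. The transcription factors TFEB, TFE3 and MITF bind E-box sequences, among them the CLEAR element, in the promoters of many lysosomal genes.

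Total counts per mouse ranged from 31148047 to 40324897. Levels are CPM (counts scaled to a common library size) after TMM normalization, and differences are log2 fold changes of Ager-deleted minus Cre control, so that a negative value is a lower level in the Ager-deleted mice. Intervals are 95% intervals from the edgeR quasi-likelihood fit. Ager itself was at 0.889, 1.51, 1.02 and 1.34 CPM in Ager-deleted mice, in the order given above, and at 1.53, 2.22, 2.18 and 2.41 CPM in Cre control mice. No Ager-deleted mouse reached the lowest control mouse, but neither edgeR test called the gene (adjusted p = 0.252 exact, 0.705 quasi-likelihood). The whole cord holds many cells that do not express Cre. RNA of other tissues differed among the mice: the summed level of 10 skeletal muscle markers was 926 CPM in E5386 and 1450 CPM in E5642 against 8.19 to 26.5 CPM in the other mice, and that of 3 liver markers was 525 CPM in E6732 against 1.29 to 2.38 CPM. In bulk tissue, fewer cells of a type and less RNA per cell cannot be told apart. The 4 markers of spinal motor neurons were present in every mouse. They summed to 44.5 to 65.5 CPM in Ager-deleted and 48.6 to 85.8 CPM in Cre control mice, so the genotypes overlapped. The log2 fold change was below 0 for all 4, beside 48% of all tested genes.

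The promoter windows below are shown because the CLEAR element is the sequence feature that many lysosomal genes share. Windows ran from 250 bases before to 50 bases after an annotated start site in RefSeq (build GRCm38.p6), and 42 of the 47 genes had at least 1. Ctsb, Ctsh, Asah1, Atp6v1b2 and Atp6v1h had none. The 8-base palindrome TCACGTGA and the E-box core CACGTG that it contains, each of which reads the same on both strands, were searched. The 8-base motif was found in 6 of 42 genes (14.3%), namely Ctsa, Ctsd, Gla, Mcoln1, Atp6v1a and Atp6v0d1, beside 304 of 27025 genes with a window (1.12%). The core was found in 14 of 42 genes (33.3%) beside 2187 of 27025 (8.09%). In the sequences that follow, capitals mark TCACGTGA and any CACGTG outside it. They lie, in order, at chr2:164833734-164833810 (plus strand), chrX:134601167-134601255 (minus strand), chr8:3500447-3500506 (plus strand), chr16:44139358-44139417 (minus strand) and chr8:105566035-105566094 (minus strand).
Ctsa: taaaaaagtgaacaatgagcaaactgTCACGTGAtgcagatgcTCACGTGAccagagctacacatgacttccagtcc
Gla: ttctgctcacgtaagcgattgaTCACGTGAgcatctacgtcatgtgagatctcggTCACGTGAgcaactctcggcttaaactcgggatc
Mcoln1: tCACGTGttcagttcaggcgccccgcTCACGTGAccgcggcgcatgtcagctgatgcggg
Atp6v1a: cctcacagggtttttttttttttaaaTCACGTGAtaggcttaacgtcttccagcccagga
Atp6v0d1: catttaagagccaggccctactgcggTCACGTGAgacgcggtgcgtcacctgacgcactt

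Ctsa and Gla each carried the 8-base motif at 2 places in a short stretch, and Mcoln1 carried it once with a further core upstream. The whole window of Ctsd, the gene of the aspartic protease cathepsin D, lay at chr7:142387778-142388077 (minus strand) and held the core at positions -245 and -98 from the start site, the latter within the 8-base motif.
Ctsd: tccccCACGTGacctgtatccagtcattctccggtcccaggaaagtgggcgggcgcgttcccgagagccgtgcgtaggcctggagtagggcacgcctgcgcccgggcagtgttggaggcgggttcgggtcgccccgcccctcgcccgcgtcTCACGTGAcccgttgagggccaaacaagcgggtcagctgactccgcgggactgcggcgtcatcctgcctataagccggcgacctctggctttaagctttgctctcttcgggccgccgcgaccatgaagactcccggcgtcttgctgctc

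Lamp2, whose level separated the genotypes below, had neither motif in its window at chrX:38456411-38456710 (minus strand), and neither had the windows of Tfeb, Tfe3 and Mitf. A match is a description of the letters in these windows.
Lamp2: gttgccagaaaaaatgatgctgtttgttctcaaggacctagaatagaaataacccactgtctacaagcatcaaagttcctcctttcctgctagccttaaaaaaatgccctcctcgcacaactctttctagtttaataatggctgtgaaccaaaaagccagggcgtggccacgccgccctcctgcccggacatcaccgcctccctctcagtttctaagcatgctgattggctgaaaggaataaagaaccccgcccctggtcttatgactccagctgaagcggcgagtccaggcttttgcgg

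The lysosomal genes differed widely in level per kb of exonic length, the scale on which genes can be compared with each other. Cst3, which encodes the secreted cysteine protease inhibitor cystatin C, was highest with a mean of 1040 CPM per kb, followed by Psap, the precursor of the saposins that activate sphingolipid hydrolases, at 860 CPM per kb. Among the proteases, Ctsd (745 CPM per kb), Ctss (552 CPM per kb) and Ctsb (383 CPM per kb) were highest, and Ctsc (8.34 CPM per kb) and Ctsk (4.13 CPM per kb) were lowest. The V-ATPase list lay in a narrower band, from 15.3 CPM per kb for Atp6v1h to 108 CPM per kb for Atp6ap1. The transcription factors were low, with 5.91 CPM per kb for Tfe3, 4.55 CPM per kb for Tfeb and 2.96 CPM per kb for Mitf. Acp5, the gene of tartrate-resistant acid phosphatase, was lowest at 0.951 CPM per kb.

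**Figure D1:**
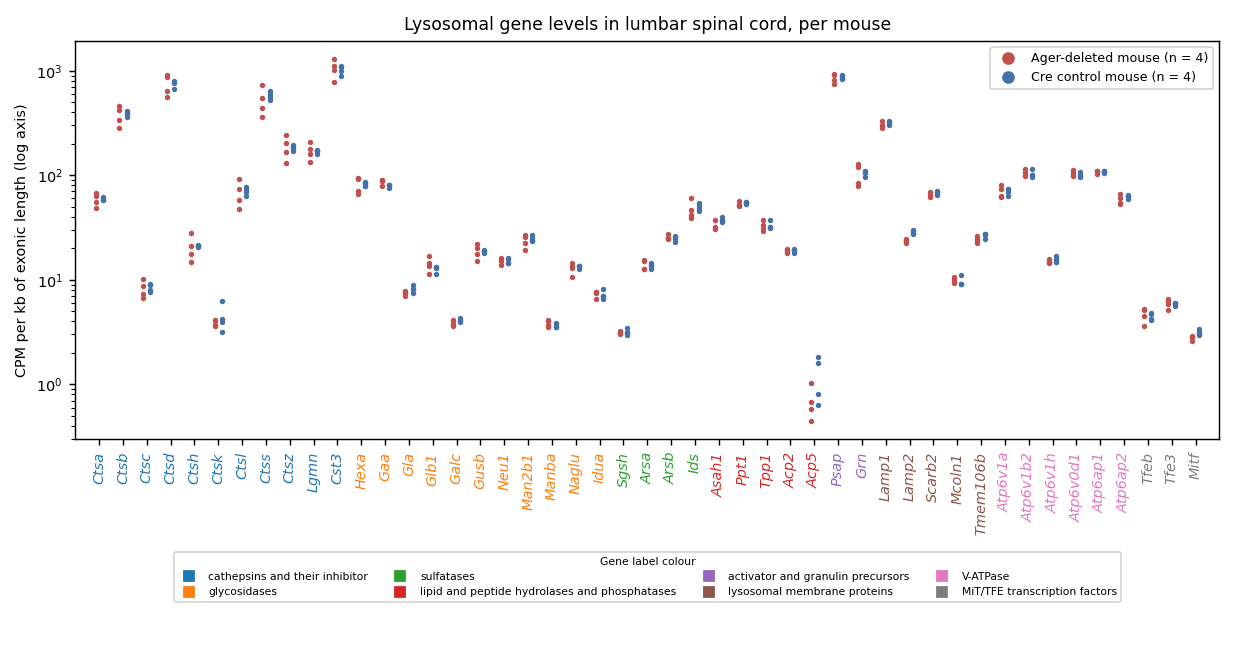
Level of each lysosomal gene per mouse, in CPM per kb of exonic length on a log axis, with Ager-deleted mice (n = 4) left of Cre control mice (n = 4) for each gene and gene labels coloured by role. Levels run from 0.951 CPM per kb for Acp5 to 1040 CPM per kb for Cst3 (means over 8 mice), and for 45 of 47 genes the points of the 2 genotypes overlap.

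Deletion of Ager was accompanied by little difference in these genes. In edgeR's exact test with Benjamini-Hochberg adjustment, 0 of 47 genes had an adjusted p under 0.05, where 14 of all 19470 genes did (0.0719%). The quasi-likelihood test also called 0 of the 47 (0.00514% of all genes), and so did limma-voom (0.00514%) and the exact test when given classic common-then-tagwise dispersions (0.401%). DESeq2 called 1, Lamp2 (0.129% of all genes). At an unadjusted p under 0.05 the exact test gave 3 genes, Lamp2, Acp5 and Asah1, all lower in Ager-deleted mice, beside 4.26% of all genes (3.06% lower). The quasi-likelihood test gave these 3 and Mitf at that level, beside 6.71% of all genes. Levels separated completely by genotype for 2 of 47 genes, Lamp2 and Mitf, both lower in Ager-deleted mice, where 3.88% of all genes separated in either direction and 1.91% were lower. The count of 2 is near the background in either direction.

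Log2 fold changes of the 47 genes ranged from -0.85 for Acp5 to 0.15 for Glb1, and 45 of them lay within 0.2 of 0. The median was -0.02, beside 0.01 over all tested genes. The fold change was below 0 for 31 of 47 genes (66%, beside 48% of all genes), and this count moved with the setting. It was 23 of 47 (48.9%, beside 40.8% of all genes) when levels were scaled by library size alone, and from 17 of 47 without E5248 to 38 of 47 without E5231 when each mouse was left out. For 44 of the 47 genes the 95% interval stayed within 0.5 of 0 on the log2 scale in both directions, the exceptions being Ctsk, Ctss and Acp5.

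**Figure D2:**
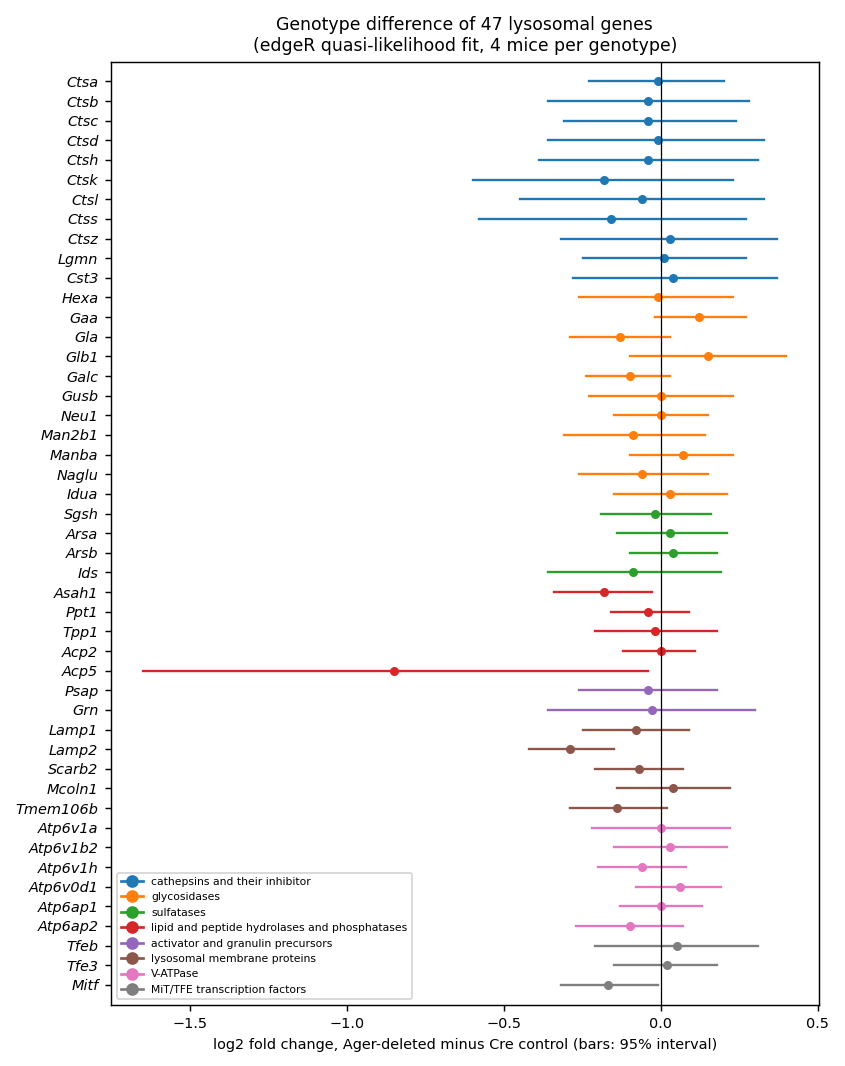
Log2 fold change of the 47 genes (Ager-deleted minus Cre control, 4 mice each) with 95% intervals from the quasi-likelihood fit, coloured by role. The intervals of Lamp2, Mitf, Asah1 and Acp5 lie below 0, all others include 0, and no gene passed the adjusted threshold in this fit.

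Cathepsins, the proteases of the lysosome, did not differ between the genotypes by more than the spread among mice. Their list of 11 genes, with cystatin C, had a median log2 fold change of -0.04, with 8 of 11 below 0, and none passed an unadjusted p of 0.05 in either edgeR test. The median was -0.152 without E5231 and 0.0772 without E5248, both Ager-deleted mice. Ctss, at chr3:95526786-95556403 (GRCm38, plus strand), encodes cathepsin S, a cysteine protease of phagocytes and antigen-presenting cells, and was at 750, 1000, 486 and 595 CPM in Ager-deleted mice and at 817, 873, 755 and 714 CPM in Cre control mice. The highest and the 2 lowest values were thus all in Ager-deleted mice, and the control mice lay between them. The log2 fold change of Ctss was -0.16 (interval -0.58 to 0.27, adjusted p = 1 in edgeR's exact test), and -0.0127 without E5248.

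Ctsk, the collagen-degrading cathepsin K known from osteoclasts, was at 5.61, 6.07, 6.24 and 5.53 CPM in Ager-deleted mice and at 4.79, 6.36, 5.92 and 9.51 CPM in Cre control mice. Only E6732 stood apart, and the log2 fold change of -0.18 (interval -0.60 to 0.23) became 0.046 without it. Cst3 was at 1420, 1650, 987 and 1300 CPM against 1260, 1380, 1420 and 1140 CPM, with a log2 fold change of 0.04 (interval -0.28 to 0.37), so the inhibitor overlapped between the genotypes as its target proteases did. It turned to -0.0714 without E5231. The remaining 8 genes, Ctsa, Ctsb, Ctsc, Ctsd, Ctsh, Ctsl, Ctsz and the asparaginyl endopeptidase Lgmn, had log2 fold changes between -0.06 and 0.03.

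The cathepsins spread widely among the Ager-deleted mice. The mouse E5231 had the highest level of 10 of the 11 genes and E5248 the lowest of 9, whereas E5231 was highest for 17.1% and E5248 lowest for 18.1% of all tested genes. Averaged over the list as the deviation of log2(CPM + 1) from each gene's mean, the values were 0.09, 0.31, -0.36 and -0.17 in the Ager-deleted mice and 0.01, 0.10, 0.01 and 0.00 in the Cre control mice. The SD was 0.294 against 0.0469, and it was larger among Ager-deleted mice for 10 of the 11 genes, beside 63.3% of all genes. Ctsh, an aminopeptidase and endopeptidase, illustrates this with 95.8, 125, 66.6 and 79.9 CPM against 94.4, 97.4, 91.9 and 94.1 CPM. Its control mice differed by a few CPM while its Ager-deleted mice spread on both sides of them. These spreads are a description, since the genes come from the same 8 libraries and were not tested for unequal variance.

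**Figure D3:**
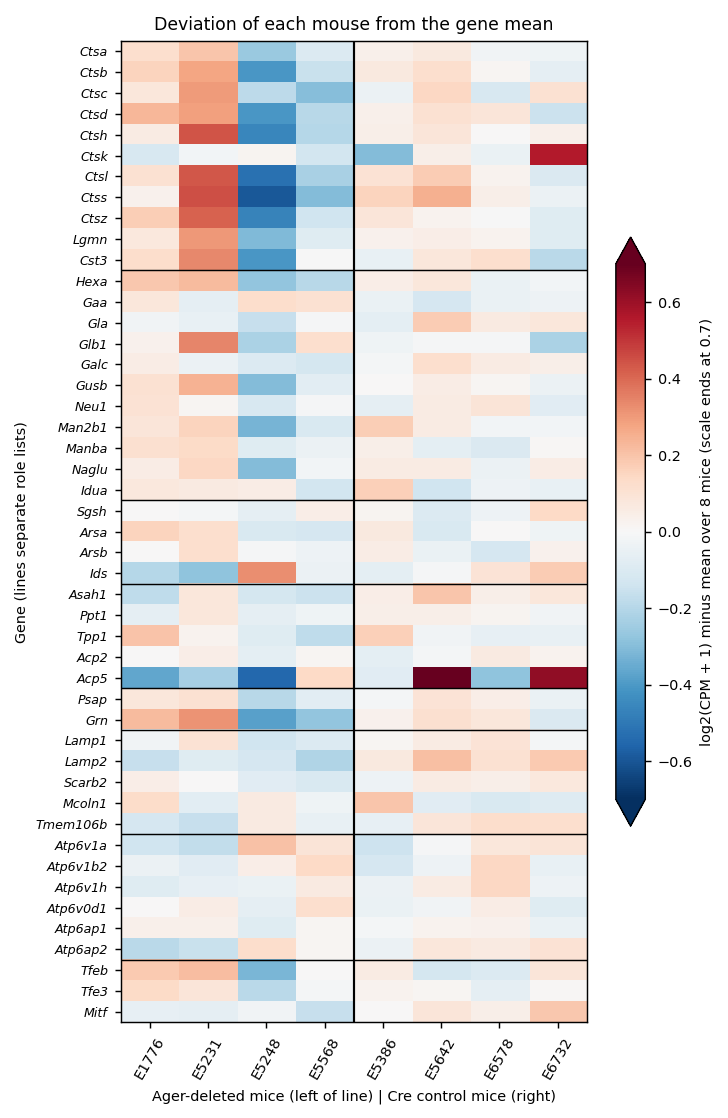
Deviation of log2(CPM + 1) from the mean over 8 mice for each gene (rows, in role order) and mouse (columns, Ager-deleted left of the line); colours end at 0.7 in each direction, which Acp5 exceeds. The cathepsin rows are red in E5231 and blue in E5248, except Ctsk, while the control columns are mostly pale except for Ctsk and Acp5.

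Markers of microglia moved with the cathepsins from mouse to mouse. The mean deviation of 12 microglial markers was 0.15, 0.38, -0.47 and -0.19 in the Ager-deleted mice and 0.13, 0.05, 0.05 and -0.10 in the Cre control mice, so E5231 was again highest and E5248 lowest. All 12 were tested, none was called, and 1, P2ry12, was lower without overlap (log2 fold change -0.32), beside 1.91% of all genes. P2ry12 was at 24.2 to 32.6 CPM against 32.7 to 36.5 CPM, highest in E5642 and lowest in E1776. The 12 markers summed to 1630 to 3120 CPM in Ager-deleted and 2130 to 2500 CPM in Cre control mice. The mean deviation of 8 markers of disease-associated microglia was also highest in E5231 and lowest in E5248, with 0.19, 0.25, -0.36 and -0.28 against 0.12, 0.13, -0.14 and 0.10. The 5 astrocyte markers deviated less, with 0.14, 0.04, -0.19 and -0.14 against 0.08, 0.10, 0.04 and -0.06. The 5 neuronal markers were highest in E5248 and lowest in E5231, at -0.11, -0.15, 0.16 and 0.08 against -0.10, -0.03, 0.15 and 0.00. The 5 markers of peripheral nerve Schwann cells were at -0.35, -0.17, 0.75 and 0.43 against -3.15, 0.96, 0.92 and 0.61. Those of meningeal fibroblasts were at -0.65, -0.06, 0.45 and -0.09 against -1.9, 0.77, 0.54 and 0.96. Among Ager-deleted mice both lists were highest in E5248 and lowest in E1776. The part of nerve and meningeal RNA in the cathepsin spread was not tested. The summed level of the cathepsin list over that of the microglial markers was 3.25 ± 0.217 (SD, n = 4) in Ager-deleted and 3.26 ± 0.0762 (SD, n = 4) in Cre control mice. For Ctss alone the ratio to the summed markers was 0.298 ± 0.0185 and 0.332 ± 0.0149 (SD, n = 4 each). Only E5231 (0.321) and E6578 (0.314) crossed. The part of these markers in the result was not tested beyond 1 fit. In that fit, the microglial marker level of each mouse was a covariate. It was added after these values had been seen, in which the markers moved with the cathepsins. No other marker list was fitted, so whether another would narrow the intervals as much was not tested. The interval narrowed for 10 of the 11 cathepsin list genes and for 41 of all 47 genes. The median standard error went from 0.155 to 0.0711 in the cathepsin list, from 0.0815 to 0.0592 over the 47 genes and from 0.117 to 0.0991 over all tested genes. For Ctsl, cathepsin L, it went from -0.45 to 0.33 without the covariate to -0.16 to 0.10 with it, and for Ctsb, cathepsin B, from -0.36 to 0.28 to -0.18 to 0.15. None of the 47 genes was called with the covariate (0.00514% of all genes), 8 had an unadjusted p under 0.05 beside 11% of all genes, and the cathepsin median was -0.01.

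**Figure D4:**
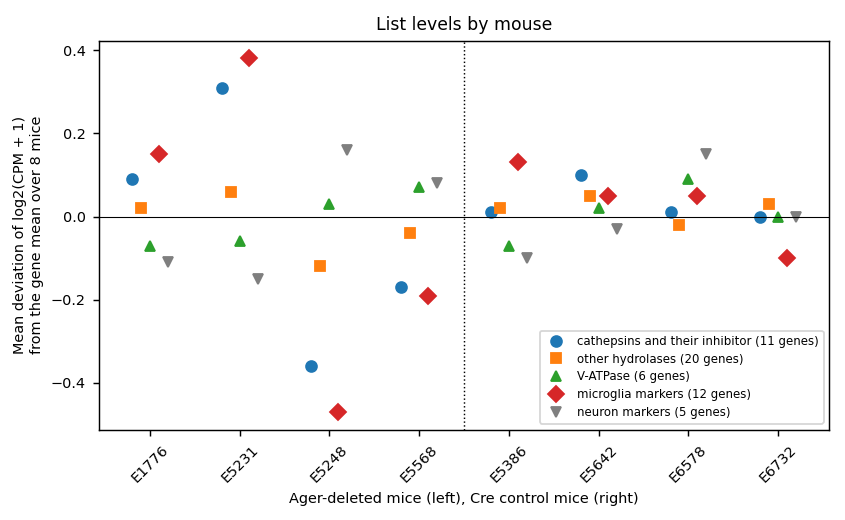
Mean deviation of log2(CPM + 1) from each gene's mean over 8 mice, per mouse, for 3 lysosomal lists and for microglial and neuronal markers; points are offset sideways for legibility. Cathepsins and microglial markers are highest in E5231 (0.31 and 0.38) and lowest in E5248 (-0.36 and -0.47), while the V-ATPase list stays between -0.07 and 0.09.

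The other hydrolases had smaller list averages, although single genes deviated further than these averages. These 20 glycosidases, sulfatases, lipid and peptide hydrolases and phosphatases had a median log2 fold change of -0.01, with 13 of 20 below 0. Their mean deviation ran from -0.12 in E5248 to 0.06 in E5231, with an SD of 0.0783 in Ager-deleted and 0.0294 in Cre control mice. Single genes reached deviations of 0.342 for Glb1 in E5231, -0.325 for Man2b1 in E5248, 0.323 for Ids in E5248 and 0.754 for Acp5 in E5642. Only Acp5, the gene with the lowest level per kb, went further than the -0.591 of the cathepsin Ctss in E5248.

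The 11 glycosidases, which remove sugars from glycoproteins, glycolipids, glycosaminoglycans and glycogen, had a median log2 fold change of 0.00, with 6 below 0 and 5 above. Gaa, acid alpha-glucosidase, which breaks down lysosomal glycogen, was at 418, 378, 432 and 427 CPM in Ager-deleted mice and at 383, 365, 383 and 386 CPM in Cre control mice. Its 3 highest mice were all Ager-deleted, but E5231 lay within the controls. The log2 fold change of Gaa was 0.12 (interval -0.02 to 0.27, adjusted p = 0.770 in the quasi-likelihood test). Gla, alpha-galactosidase A, was at 25, 24.5, 22.7 and 25.3 CPM against 24.2, 28.9, 26.6 and 26.9 CPM, with a log2 fold change of -0.13 (interval -0.29 to 0.03). The control mouse E5386 alone fell within the Ager-deleted range of Gla. Of the 11 glycosidases, 5 were highest in E5231 and 6 lowest in E5248, beside 17.1% and 18.1% of all tested genes. Hexa, Gusb and Glb1, a beta-hexosaminidase subunit, the beta-glucuronidase and the beta-galactosidase, were among those highest in E5231. Hexa and Gusb were also lowest in E5248, whereas Gaa was highest in that mouse.

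Among the 4 sulfatases, which remove sulfate from glycosaminoglycans or sulfatide, the median log2 fold change was 0.01. Ids, iduronate 2-sulfatase, was at 212, 201, 306 and 238 CPM in Ager-deleted mice and at 233, 243, 262 and 276 CPM in Cre control mice. It ran opposite to the cathepsins, with its highest level in E5248 and its lowest in E5231, and the log2 fold change was -0.09 (interval -0.36 to 0.19). Arsb, arylsulfatase B, was at 152, 165, 151 and 148 CPM against 158, 147, 140 and 155 CPM, with a log2 fold change of 0.04 (interval -0.10 to 0.18). The genotypes overlapped for both.

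The lipid and peptide hydrolases and phosphatases had a median log2 fold change of -0.04, all 5 being below 0. Asah1, at chr8:41340197-41374773 (GRCm38, minus strand), encodes acid ceramidase, which cleaves ceramide to sphingosine, and was at 105, 126, 109 and 107 CPM in Ager-deleted mice and at 123, 136, 122 and 126 CPM in Cre control mice. Every Ager-deleted mouse except E5231 lay below all controls. The log2 fold change was -0.18 (interval -0.34 to -0.03), and edgeR's adjusted p was 1 (exact) or 0.742 (quasi-likelihood). Acp5, at chr9:22126727-22135711 (GRCm38, minus strand), was at 1.17, 1.37, 0.903 and 2.07 CPM against 1.64, 3.71, 1.3 and 3.28 CPM, and its lowest library held 32 counts. The controls E5642 and E6732 were high and the other controls lay within the Ager-deleted range. The log2 fold change was -0.85 (interval -1.65 to -0.04, adjusted p = 1 in the exact test), and it ranged from -1.11 to -0.604 when each mouse was left out in turn. Ppt1, palmitoyl-protein thioesterase, Tpp1, tripeptidyl peptidase, and the acid phosphatase Acp2 had log2 fold changes of -0.04, -0.02 and 0.00.

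RNA of bone and of connective tissue differed among the same mice. Ibsp, which encodes bone sialoprotein, was at 2.47 CPM in E5642 and 1.43 CPM in E6732, the mice with the highest Acp5, and 0.0762 to 0.724 CPM elsewhere. Atp6v0d2, a V-ATPase subunit known from osteoclasts and macrophages, was at 19.3 CPM in E5642 and 15.1 CPM in E6732 and at 4.27 to 10.6 CPM in the others. These genes were picked after their values were seen, and the other 4 tested bone markers did not share that order in full. Calcr was highest in E5642 (0.648 CPM) but lowest in E6732 (0.34 CPM). Mmp9 was highest in E5642 (13.2 CPM), with 13.1 CPM in E5386 and 9.02 CPM in E6732. Oscar was highest in E5386 (2.41 CPM), and Sp7 in E6578 (2.47 CPM). The 5 tested of the 8 osteoclast and bone markers summed to 9.37 to 15.4 CPM in Ager-deleted and 12.1 to 19.8 CPM in Cre control mice, with 14.1 CPM in E6732. The osteoclast fusion genes Ocstamp and Dcstamp were near 0 with 2 to 9 and 3 to 15 counts per library. The 5 markers of meningeal fibroblasts, all tested, summed to 165 to 339 CPM in Ager-deleted and 72.9 to 497 CPM in Cre control mice, lowest in E5386. Of these, the collagen genes Col1a1 (14.7 and 77.3 CPM) and Col1a2 (41.7 and 139 CPM) and the transporter gene Slc6a13 (3.01 and 19.2 CPM) were lowest in E5386 and highest in E6732, as Ctsk was. Dcn and Lum, the other markers of this list, were also lowest in E5386 but were highest in E5642. Dcn was at 276 CPM in E5642 and 232 CPM in E6732, and Lum at 32.7 and 29.2 CPM. The part of bone and fibroblast RNA in the Acp5 and Ctsk values was not tested.

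The 2 precursor genes followed the cathepsins. Psap was at 2480, 2540, 2060 and 2240 CPM in Ager-deleted mice and at 2330, 2520, 2430 and 2280 CPM in Cre control mice, with a log2 fold change of -0.04 (interval -0.26 to 0.18). Grn, which encodes progranulin, a glycoprotein that is cut into granulins in the lysosome, was at 418, 446, 275 and 296 CPM against 366, 387, 378 and 334 CPM, with a log2 fold change of -0.03 (interval -0.36 to 0.30). For both genes E5231 was highest and E5248 lowest of the 8 mice.

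The lysosomal membrane proteins held the clearest separation. The 5 genes, Lamp2 among them, had a median log2 fold change of -0.08, with 4 below 0. Their mean deviation was -0.03, -0.04, -0.04 and -0.10 in the Ager-deleted mice and 0.04, 0.07, 0.05 and 0.05 in the Cre control mice. The list average thus did not overlap between the genotypes, which is a description and was not tested. Lamp2, on chromosome X at chrX:38401357-38456454 (GRCm38, minus strand), encodes a heavily glycosylated protein of the lysosomal membrane with isoforms that act in autophagy. Lamp2 was at 223, 234, 229 and 215 CPM in Ager-deleted mice and at 261, 289, 268 and 283 CPM in Cre control mice. Every Ager-deleted mouse lay below every control, and neither E5231 nor E5248 stood out. The means were 225 ± 8.50 and 275 ± 12.6 CPM (SD, n = 4 each), a log2 fold change of -0.29 (SE 0.06, interval -0.42 to -0.15). Adjusted over all tested genes, p was 0.152 by the exact test of edgeR, 0.705 by quasi-likelihood and 0.00471 by DESeq2, so the call depended on the tool. When each mouse was left out in turn, the log2 fold change ranged from -0.319 to -0.265 and the adjusted p of the exact test from 0.0881 to 0.699. With the microglial marker covariate the log2 fold change of Lamp2 was -0.29 (interval -0.41 to -0.16), and the adjusted p of that edgeR fit was 0.195.

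Lamp1, the closest relative of Lamp2 and the other major protein of the lysosomal membrane, was at 811, 884, 750 and 772 CPM in Ager-deleted mice and at 834, 860, 883 and 816 CPM in Cre control mice. The genotypes overlapped, and the log2 fold change was -0.08 (interval -0.25 to 0.09). The ratio of Lamp2 to Lamp1 CPM was 0.275, 0.265, 0.306 and 0.278 in the Ager-deleted mice and 0.313, 0.336, 0.304 and 0.346 in the Cre control mice, where only E5248 and E6578 crossed. Lamp1 shared exon bases with a gene on the opposite strand, Grtp1, and Lamp2 shared none with any gene. The strand setting of the counting is not given in the sources used here, and 18 of the 47 genes share exon bases with another annotated gene, 16 of them on the opposite strand, so their reads may be uncertain.

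Tmem106b, a membrane protein of late endosomes and lysosomes, was at 162, 157, 183 and 169 CPM in Ager-deleted mice and at 169, 186, 192 and 191 CPM in Cre control mice. Its log2 fold change was -0.14 (interval -0.29 to 0.02), and E5248 lay within the control range. Scarb2, the sorting receptor of glucocerebrosidase, and the calcium channel gene Mcoln1 had log2 fold changes of -0.07 and 0.04.

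No gene of the proton pump separated the genotypes. The 6 genes had a median log2 fold change of 0.00, with 3 below 0 and 3 above, and the mean deviation per mouse stayed between -0.07 and 0.09. Its SD was 0.0685 in Ager-deleted and 0.0658 in Cre control mice. Atp6ap2, an accessory protein of the pump also known as the prorenin receptor, was at 138, 142, 172 and 160 CPM in Ager-deleted mice and at 154, 167, 165 and 170 CPM in Cre control mice, with a log2 fold change of -0.10 (interval -0.27 to 0.07). Atp6v1h, a regulatory subunit of the cytosolic V1 sector, was at 140, 143, 144 and 155 CPM against 145, 155, 165 and 145 CPM, with a log2 fold change of -0.06 (interval -0.20 to 0.08). Atp6v1a, the catalytic subunit, was at 382, 374, 485 and 449 CPM against 381, 418, 444 and 448 CPM, highest in E5248 and lowest in E5231, the reverse of the cathepsins. The catalytic subunit overlapped fully between the genotypes (log2 fold change 0.00, interval -0.22 to 0.22).

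The MiT/TFE factors, which drive lysosomal genes when they enter the nucleus, were measured here only as transcripts. Mitf, at chr6:97807052-98021349 (GRCm38, plus strand), was at 17.5, 17.4, 17.9 and 16.2 CPM in Ager-deleted mice and at 18.3, 19.4, 18.8 and 20.9 CPM in Cre control mice. The genotypes did not overlap, by a gap smaller than 1 CPM, and they overlapped when levels were scaled by library size alone. The log2 fold change was -0.17 (interval -0.32 to -0.01), and edgeR's adjusted p was 1 (exact) or 0.742 (quasi-likelihood). Tfeb was at 29.3, 29.9, 20.3 and 25.7 CPM against 26.7, 23.5, 23.9 and 27.2 CPM, with a log2 fold change of 0.05 (interval -0.21 to 0.31). Tfe3 was at 60.1, 58, 47.9 and 54.1 CPM against 55.5, 55, 52.2 and 54.9 CPM, with a log2 fold change of 0.02 (interval -0.15 to 0.18). For Tfeb and Tfe3 the genotypes overlapped, and E5248 was the lowest mouse.

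**Figure D5:**
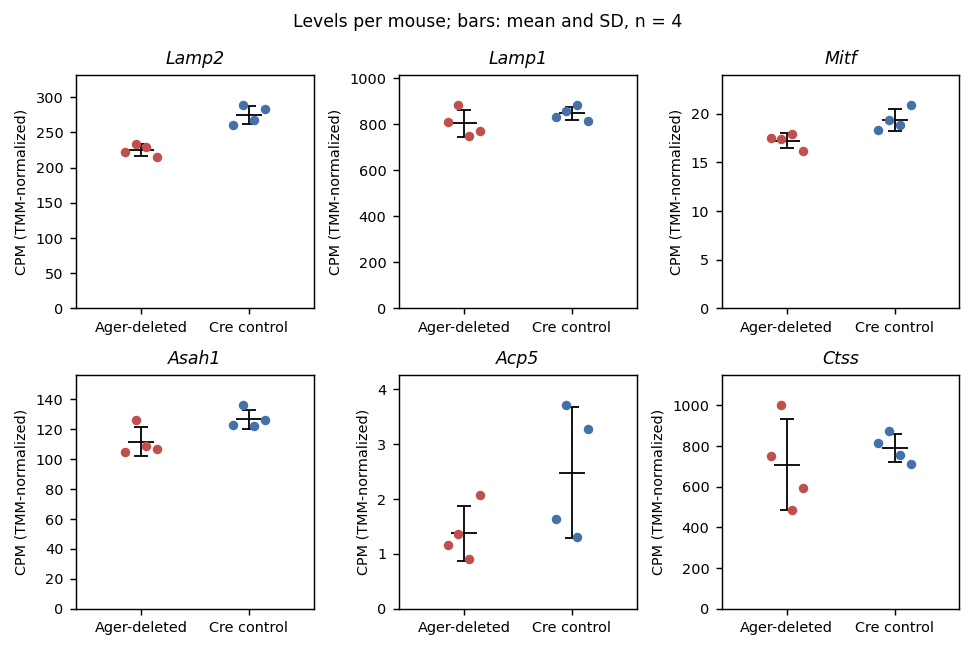
CPM per mouse for Lamp2, Lamp1, Mitf, Asah1, Acp5 and Ctss in Ager-deleted and Cre control mice, each axis starting at 0, with bars at the mean and SD (n = 4). Lamp2 (215 to 234 against 261 to 289 CPM) and Mitf (16.2 to 17.9 against 18.3 to 20.9 CPM) separate the genotypes, while Lamp1, Asah1, Acp5 and Ctss overlap.

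Further genes of the pathway gave the same picture of few differences. Of 86 other genes listed for hydrolases, cathepsins and cystatins, V-ATPase subunits, membrane and transport proteins, enzyme sorting and the mTORC1 platform, 81 were tested. None was called by the exact test (0.0719% of all genes), by quasi-likelihood (0.00514%) or by DESeq2 (0.129%). An unadjusted p under 0.05 was reached by 1 gene in the exact test, beside 4.26% of all genes. In the quasi-likelihood test 2 genes reached it, beside 6.71%. Of the 81, 49 had a log2 fold change below 0 (60.5%, beside 48% of all genes), with a median of -0.01, beside 0.01 over all tested genes. The 5 untested genes, Atp6v0a4, Atp6v1b1, Atp6v1c2, Atp6v1e2 and Atp6v1g3, are V-ATPase isoforms with 0 to 15 counts per library. Levels separated completely for 2 of the 81, beside 1.97% of all genes higher and 1.91% lower in this way. Hyal2, a hyaluronidase, was higher, at 13, 14.7, 12.9 and 14.3 CPM against 11.7, 12.1, 10.7 and 12.3 CPM (log2 fold change 0.23, interval 0.04 to 0.42). Fnip1, a partner of folliculin in nutrient signalling at the lysosome, was lower, at 46.6, 46.1, 47.6 and 49.4 CPM against 51.9, 57.9, 54.5 and 59.6 CPM (log2 fold change -0.24, interval -0.38 to -0.10). Adjusted over all genes, the quasi-likelihood p was 0.742 for Hyal2 and 0.705 for Fnip1 in edgeR. By list, the median log2 fold change was -0.01 for 20 other hydrolases and activators, -0.07 for 8 other cathepsins and cystatins (of which Cst7 also stands among the markers of disease-associated microglia), 0.03 for 14 other V-ATPase subunits, -0.02 for 17 membrane and transport proteins, 0.06 for 9 genes of enzyme sorting and maturation, and -0.04 for 13 genes of the mTORC1 platform with Tfec.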

How the data were processed

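Counts per gene and a table of log2 values were deposited by the authors for all 8 mice. Per the labels, poly(A) RNA was sequenced from stranded libraries, trimmed with Trimmomatic 0.36, aligned with STAR 2.7.3a to mm10, and the counts were made with featureCounts (Subread 1.6.3). The deposited log2 values are log2 CPM after TMM normalization. They held the same 19470 genes as the filter used here and differed from recomputed values by at most 4.78e-06, so they were used only as a check.

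Genes were filtered with filterByExpr (minimum 10 counts), TMM-normalized and compared by the exact test of edgeR 4.0.16 (R 4.3.3), with the quasi-likelihood test, DESeq2 1.42.0 and limma-voom (limma 3.58.1) as alternatives. P-values were adjusted by Benjamini-Hochberg over all tested genes (threshold 0.05). The fits were tested on simulated data. Deviations used log2(CPM + 1). Replicates are separate mice, and no 2 libraries agreed within counting error (chi-square per degree of freedom 17.8 to 135 over 28 pairs). Total counts were 31148047 to 40324897, so 3 counts are at most 0.0963 CPM, counting error only. Exonic lengths and gene positions are from GENCODE M21 (GRCm38), matched by symbol for all 47 genes.

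Genes described per mouse were Ager, members called or without overlap between genotypes, the 2 smallest exact-test p per role list, Tfeb, Tfe3 and Mitf, and the highest and lowest per kb. Ctsh, Lamp1 and Atp6v1a were added after their values were seen. Members and lists were chosen with earlier results of these data known. Leaving out each mouse, other scalings and other filters were tried.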

Additional observations from a re-analysis of the deposited data

Results flagged for a closer look

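In 6 of 94 groups of 4 mice examined for the 47 genes, 1 mouse stood far from the other 3 of its genotype, where chance gives about 1 in 20 groups (4.7 of 94). Tpp1 was at 191 CPM in the Cre control mouse E5386 against 163 to 167 CPM in the other controls, and Mcoln1 was at 84.2 CPM in the same mouse against 68.2 to 69.4 CPM. Gaa was at 365 CPM in the Cre control mouse E5642 against 383 to 386 CPM. Glb1 was at 34.4 CPM in the Cre control mouse E6732 against 39.5 to 40.2 CPM, and Naglu was at 33.9 CPM in the Cre control mouse E6578 against 36.2 to 36.3 CPM. Idua was at 27.8 CPM in the Ager-deleted mouse E5568 against 31.6 to 32.1 CPM.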

How the results depend on the processing

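Members called numbered 1 in DESeq2 and 0 under every other setting run. The number of members without overlap was 1 by library size alone, 5 without both E5386 and E5642 (12.8% of all genes), and 2 to 6 when each mouse was left out, with 6 without E5231 (7.68% of all genes) and 4 without E5386 (8.66%). Lamp2 was among them in each of these. Log2 fold changes of single members, leaving out each mouse, ranged from -0.322 to 0.046 for Ctsk, -0.0791 to 0.0186 for Psap, -0.151 to 0.0795 for Grn, -0.0138 to 0.159 for Tfeb, -0.0281 to 0.0781 for Tfe3 and -0.0714 to 0.165 for Cst3. The V-ATPase median was -0.0613 without both E5386 and E5642. Leaving out each mouse gave medians of -0.152 to 0.0772 for cathepsins, -0.0335 to 0.0183 for other hydrolases, -0.033 to 0.0189 for V-ATPase and -0.0804 to 0.0217 for all members. Over 18 named members and 20 settings, 346 of 360 log2 fold changes kept their direction and side of the threshold, 13 turned and 1, Lamp2 in DESeq2, passed the threshold. The turned values, all near 0, were for Tfeb -0.00105 without E1776 and -0.0138 without E5231, for Tfe3 -0.0281 without E1776, -0.00961 without E5231 and -0.00227 without E6578, for Cst3 -0.0714 without E5231 and -0.0108 without E6732, for Psap 0.0186 without E5248, for Ctsk 0.046 without E6732, and for Grn 0.0795 without E5248, 0.0538 without E5568, 0.00577 without both E5386 and E5642 and 0.00182 with the microglial covariate. The cause was not tested. Ager had an adjusted p of 0.0442 without E5386 in the exact test. No paired analysis was possible because the labels give mouse IDs and no replicate numbers shared between genotypes. With 4 mice per genotype, the median standard error of a member's log2 fold change was 0.0815.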
